A study of Homo sapiens and Mus musculus with 24 samples.

Results

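The subject is how ultraviolet (UV) irradiation changed the RNA recovered from primary mouse hippocampal cultures, gene by gene, among mRNAs of neuronal, glial and general functions and among the other RNA types. The mouse files listed 53715 genes, and the 18488 whose mean in the nonirradiated samples reached 0.5 CPM (reads per 10 to the power of 6 reads on genes) were tested. Dissociated hippocampal cells of C57/BL6NCr E16.5 embryos were cultured and treated with the antimitotic AraC, which removes dividing glia. Each of 3 samples was irradiated with UV light on ice and each of 3 others was not, and RNA was then extracted from both groups with TRIzol. No genotype, transgene or drug separated the groups, and AraC was common to both. The study describes its triplicates as biological, but neither it nor the labels say whether the 3 samples of a group came from separate litters or dissections, so the p-values measure the spread between these samples. These 6 samples belong to a series of 24 that also holds human HepG2 and HEK293 cells and the mouse neuroblastoma line Neuro2a, and Neuro2a is used here only for comparison.

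UV light links RNA covalently to proteins that touch it, and in acid phenol extraction an RNA with protein attached leaves the aqueous phase with the protein. A crosslink left on an RNA can also hinder reverse transcription, so a lower count after irradiation does not by itself tell these steps apart. Hippocampal neurons express unusually long mRNAs, many with long 3′ untranslated regions (UTRs), for synaptic receptors, channels and adhesion proteins, while astrocytes supply transporters, lipoproteins and metabolic enzymes.

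The 6 libraries held 6910907 to 9163323 counts on genes. The 10 genes with most counts took 21.5% to 32.4% of a nonirradiated library and 40.3% to 52.4% of an irradiated one, so values are given as CPM normalized by edgeR's TMM factors and each change is relative to the bulk of genes. Under library size alone the median of all genes was −0.59 instead of −0.04 on the log2 scale and that of protein-coding genes −0.49 instead of 0.05, and lists whose direction turned are given with that value. Neuronal identity was present in every library. The 12 neuron markers summed to 3969.0 to 4279.1 normalized CPM in nonirradiated and 3614.7 to 3801.3 in irradiated samples. Astrocyte mRNA was also present despite AraC, with 25 markers at a sum of 2841.5 to 2962.3 in nonirradiated and 4523.6 to 4881.3 in irradiated samples. The sums of 15 microglia markers (7.26 to 7.65 nonirradiated, 9.55 to 10.9 irradiated) and 14 vascular or fibroblast markers (45.7 to 49.1 and 50.6 to 63.5) were low. C1qb, a microglial complement gene, and Opalin, an oligodendrocyte gene, were at 0 in every library.

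Irradiation lowered 4791 genes and raised 4822 at an adjusted p below the threshold of 0.05 (edgeR's quasi-likelihood test, Benjamini-Hochberg adjustment), which is 25.9% and 26.1% of the genes tested (52% in either direction). Among the 13977 protein-coding genes 3477 fell (24.9%) and 4316 rose (30.9%), and their median log2 fold change was 0.05. Called changes were therefore common in both directions, and the counts below are read against these shares. The shares depended on level. In the lowest quintile of protein-coding genes by nonirradiated mean CPM 5.97% fell and 15.7% rose. In the highest 50.7% fell and 26.8% rose (median −0.22), so falls in lists of well-expressed genes are also to be read against those values. The irradiated values lay below all nonirradiated values for 30.8% of genes and above them for 29.3%.

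mRNAs for synaptic structure lost reads more often than they gained them. Of 54 genes for synaptic vesicles and transmitter release 30 fell and 11 rose (median log2 fold change −0.32), of 40 synaptic adhesion genes 26 fell and 2 rose (−0.36), and of 44 postsynaptic scaffold and signalling genes 19 fell and 9 rose (−0.11). Cadm1, an adhesion molecule that spans the synaptic cleft, had 574.1, 550.3 and 584.2 normalized CPM in the nonirradiated and 249.5, 217.1 and 236.7 in the irradiated samples. Every irradiated value of Cadm1 was below every nonirradiated one (log2 fold change −1.28, SE 0.08, edgeR adjusted p = 2.7e-10). Ncam1, the neural cell adhesion molecule, went from 1027.1, 1059.7 and 1068.7 to 577.3, 542.4 and 558.2 (−0.91, SE 0.08, edgeR adjusted p = 1.8e-08). Lrrtm1, a postsynaptic organizer of excitatory synapses, was the adhesion gene with the largest rise, from 36.1, 32.5 and 38.0 to 54.4, 47.9 and 54.3 (0.56, SE 0.10, edgeR adjusted p = 5.2e-05).

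The release machinery was divided in the same way. Rab3c, a vesicle-associated small GTPase, had 218.5, 199.4 and 205.0 normalized CPM without and 86.5, 72.3 and 86.2 with irradiation, groups far apart (log2 fold change −1.34, SE 0.09, edgeR adjusted p = 2.4e-10). Syt5, a synaptotagmin of secretory vesicles, moved the other way, from 53.2, 59.2 and 54.0 to 99.5, 131.1 and 116.9 (1.06, SE 0.10, edgeR adjusted p = 1.9e-08). Snap25, the plasma membrane SNARE of transmitter release, fell from 217.5, 200.4 and 232.2 to 158.0, 119.4 and 154.2 (−0.59, SE 0.10, edgeR adjusted p = 4.1e-05). On the postsynaptic side Psd3, an Arf exchange factor, went from 403.6, 353.8 and 393.5 to 173.8, 140.6 and 152.4 (−1.30). Nrgn, the short calmodulin-binding protein neurogranin, went from 34.1, 39.7 and 40.2 to 72.5, 69.7 and 64.9 (0.86). Both differences passed the test, with edgeR adjusted p = 5.7e-10 and 1.7e-07.

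Receptors, channels and transporters followed. Of 25 glutamate receptor genes 10 fell and 5 rose (median −0.23), of 14 GABA receptor genes 10 fell and 1 rose (−0.51), and of 45 voltage-gated channel genes 29 fell and 6 rose (−0.44). Grin2b, the NMDA receptor subunit that prevails in embryonic hippocampus, fell from 617.4, 502.2 and 606.9 to 257.2, 242.5 and 232.7 normalized CPM (log2 fold change −1.24, SE 0.09, edgeR adjusted p = 1.2e-09). Among the channels Kcnb2, a delayed-rectifier potassium channel, had the largest fall (−1.0). Of 15 genes for vesicular and plasma membrane transport of transmitters and ions 10 fell and 2 rose (−0.48). Slc12a2, the chloride importer NKCC1, was between 40.4 and 42.6 without irradiation and at 23.4 or less with it (−1.03, SE 0.11, edgeR adjusted p = 2.2e-07). Slc17a7, the vesicular glutamate transporter VGLUT1, rose from 116.6, 118.1 and 120.0 to 162.4, 192.3 and 160.9 (0.54, SE 0.08, edgeR adjusted p = 2.1e-05), a rise that was absent under library size alone (−0.02).

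Genes of neurite growth were mixed. Of 42 axon guidance genes 26 fell and 5 rose (median −0.34), led by Unc5c, a netrin receptor (−0.97), and by the Nogo receptor Rtn4r in the other direction (0.89). In the neuronal cytoskeleton 13 of 39 genes fell and 17 rose, with a median of 0.15 that was −0.41 under library size alone. Relative to protein-coding genes it was 0.10, and −0.06 over genes sharing no exon base. Dcx, the doublecortin of migrating neurons, went from 357.2, 300.5 and 336.0 to 141.2, 126.3 and 140.8 normalized CPM (log2 fold change −1.28, SE 0.09, edgeR adjusted p = 4.1e-10). Tmsb10, a small actin monomer-binding thymosin, went from 76.2, 84.0 and 86.3 to 244.4, 273.7 and 270.7 (1.68, SE 0.08, edgeR adjusted p = 7.3e-11). These were the ends of the list, and neither gene's groups overlapped. Of 33 microtubule motor genes 15 fell and 7 rose (−0.14), with Dctn3, a short dynactin subunit, at the upper end (1.28). Of 26 Rab GTPase genes of membrane traffic 15 fell and 7 rose (−0.50), from Rab30 at −1.22 to Rab33a at 1.04.

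**Figure D1:**
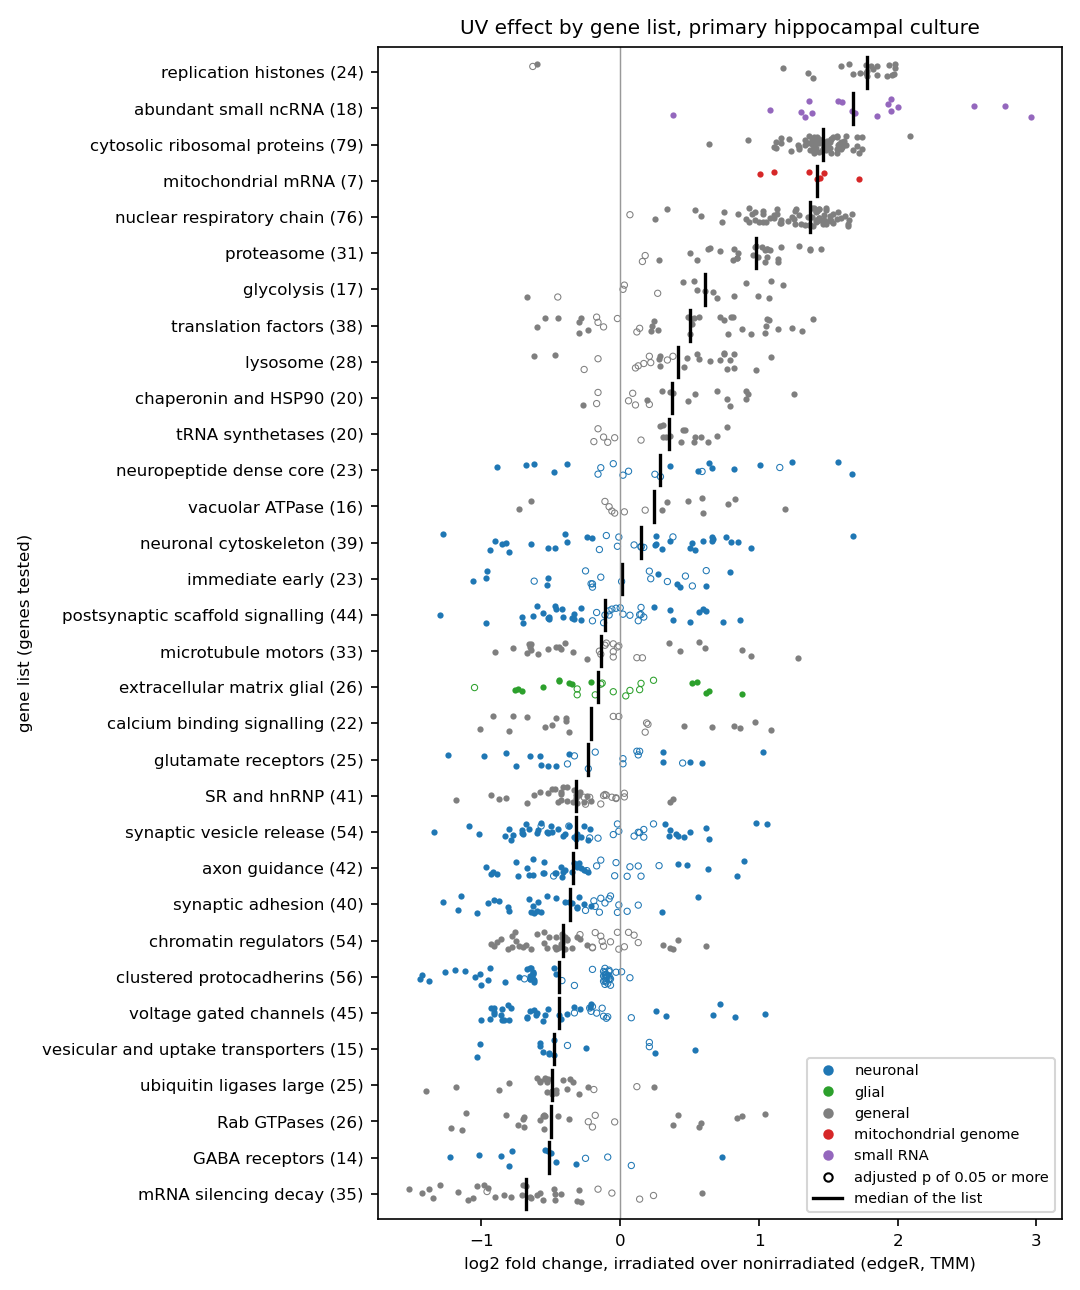
Log2 fold change, irradiated against nonirradiated, of every tested gene in each functional list (points, open where not called) with the list's median (bar), for the hippocampal culture, coloured by neuronal, glial, general, mitochondrial or small RNA class. Synaptic adhesion, channel, silencing and ubiquitin ligase lists lie mostly below 0, with medians of −0.36, −0.44, −0.68 and −0.49, while ribosomal protein and respiratory chain lists lie above, at 1.46 and 1.37.

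Familiar markers of neuronal classes did not move as a block. Of the 12 pan-neuronal markers 6 fell and 5 rose (median −0.09), and relative to protein-coding genes the median was −0.14, or −0.27 over markers that share no exon base with another gene. Map2, the dendritic microtubule-associated protein, fell from 1411.6, 1241.3 and 1354.3 to 841.0, 700.9 and 759.4 normalized CPM (log2 fold change −0.80, SE 0.09, edgeR adjusted p = 4.7e-07). Elavl4, a neuronal RNA-binding protein, fell further on the log2 scale (−0.91, SE 0.13, edgeR adjusted p = 6.3e-06). Thy1, a surface glycoprotein of mature neurons, rose from 89.0, 99.0 and 100 to 159.6, 188.7 and 177.6 (0.87, SE 0.09, edgeR adjusted p = 5.5e-08), and Rbfox3, the antigen of the NeuN antibody, rose by 0.29 (edgeR adjusted p = 0.00998, but −0.25 under library size alone), a call lost without nonirradiated sample 1 or irradiated sample 3. Tubb3, the neuronal β-tubulin, had overlapping groups, with 979.6, 1002.5 and 1085.3 against 1023.0, 1172.0 and 1199.9 (0.15, edgeR adjusted p = 0.185). Camk2a, the α subunit of a synaptic kinase, also missed the threshold (−0.11, edgeR adjusted p = 0.251), although its irradiated values lay below the others.

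Markers of inhibitory neurons were divided too. Of 11 tested GABAergic markers 3 fell, 2 rose and 6 were not called. Gad1, which makes GABA from glutamate, went from 103.3, 103.8 and 111.7 to 55.3, 55.4 and 59.1 normalized CPM (log2 fold change −0.91, SE 0.08, edgeR adjusted p = 1.8e-08). Its paralog Gad2 went from 22.5, 18.0 and 24.2 to 12.8, 11.9 and 10.5 (−0.88, SE 0.14, edgeR adjusted p = 2.3e-05). Sst, the somatostatin precursor of a class of the same interneurons, rose from 21.1, 20 and 21.7 to 56.0, 39.5 and 51.5 (1.24, SE 0.12, edgeR adjusted p = 2.8e-08). The summed level of the 12 GABAergic markers was 256.8 to 281.4 without and 260.1 to 281.5 with irradiation. The median over the 11 tested was 0.21, or −0.35 under library size alone. It was that of Slc32a1, which was not called (edgeR adjusted p = 0.176). Npy, Dlx2, Dlx5 and Dlx6 had means of 1.49 normalized CPM or less without irradiation. Of 8 glutamatergic markers 4 fell and 1 rose (median −0.19). In bulk samples fewer cells of a type and less recovered RNA per cell cannot be told apart. Of 23 neuropeptide and dense-core vesicle genes 5 fell and 9 rose, with a median of 0.29 that was −0.25 under library size alone. Relative to protein-coding genes it was 0.24, and 0.40 over genes sharing no exon base. Cpe, the carboxypeptidase that trims prohormones, rose by 0.36 (edgeR adjusted p = 0.0009, but −0.19 under library size alone).

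**Figure D2:**
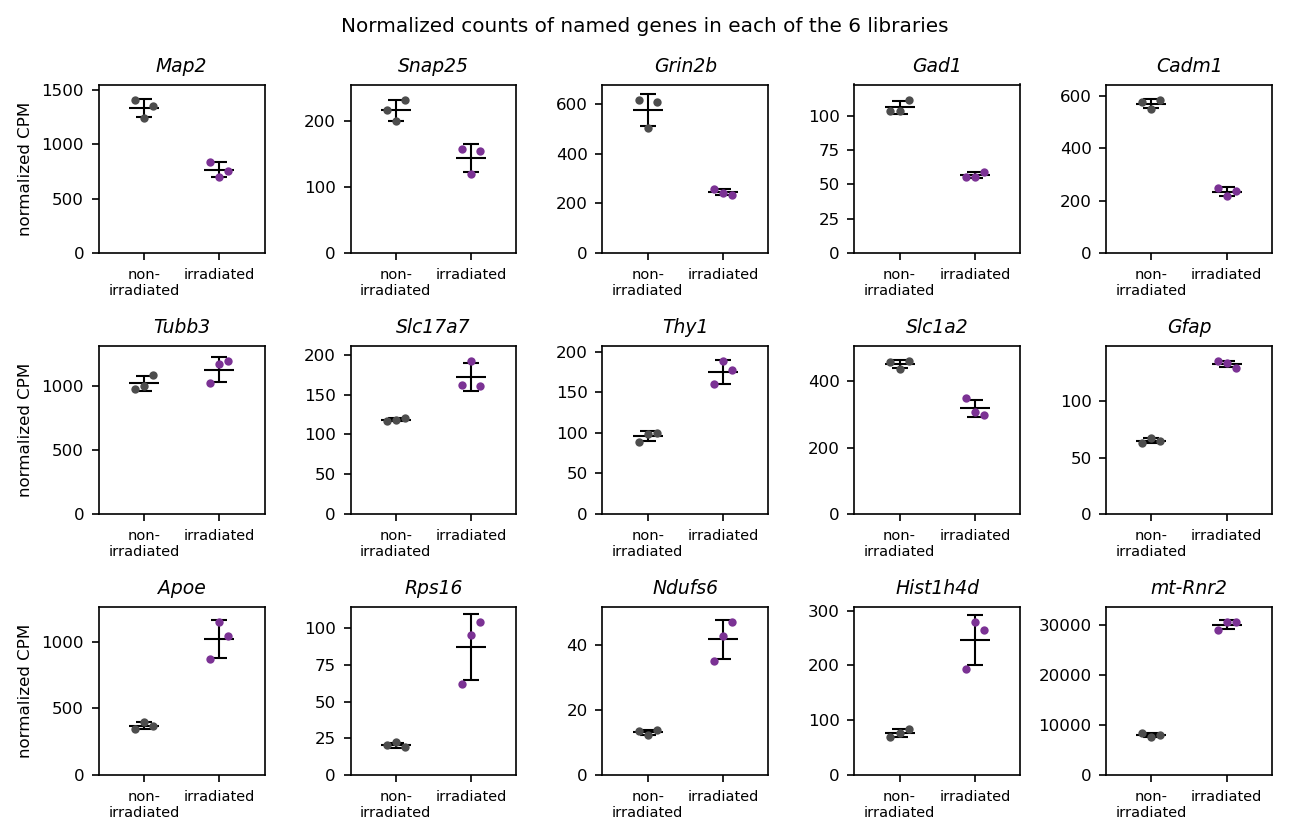
Normalized CPM (vertical axes, linear from 0 and scaled for each gene) of 15 genes in the 3 nonirradiated (grey) and 3 irradiated (purple) hippocampal samples, each point 1 sample, with the group mean and SD as bars. Map2, Snap25, Grin2b, Gad1, Cadm1 and Slc1a2 are lower after irradiation in every sample, Tubb3 overlaps, and Slc17a7, Thy1, Gfap, Apoe, Rps16, Ndufs6, Hist1h4d and mt-Rnr2 are higher in every sample.

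Astrocyte mRNAs gained reads as a list. Of 24 tested astrocyte markers 17 rose and 2 fell, and the median log2 fold change was 0.56 (0.01 under library size alone). Gfap, the astrocyte intermediate filament, had 62.8, 67.5 and 65.1 normalized CPM without and 135.8, 133.5 and 129.8 with irradiation (1.03, SE 0.08, edgeR adjusted p = 1.7e-09). Apoe, the lipid carrier secreted by astrocytes, went from 349.2, 396.3 and 368.9 to 872.5, 1150.6 and 1040.4 (1.46, SE 0.10, edgeR adjusted p = 4.7e-10). Mt3, a brain metallothionein, was at the upper end, from 34.3, 35.5 and 36.2 to 104.7, 123.7 and 121.1 (1.72, SE 0.09, edgeR adjusted p = 7.3e-11). The 2 markers that fell were Slc1a2 and Slc4a4. Slc1a2, the glutamate transporter GLT-1, went from 457.7, 437.7 and 461.6 to 348.4, 308.1 and 297.5 (−0.51, SE 0.08, edgeR adjusted p = 3.8e-05), and Slc4a4, a sodium bicarbonate cotransporter, fell by 0.57 (edgeR adjusted p = 0.00027). The median exon length of the astrocyte markers was 3417 bases, against 7484.5 for the synaptic adhesion genes, and set against protein-coding genes of the same length quintile the list medians were 0.44 and −0.23.

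Other glial genes were divided. Of 10 tested oligodendrocyte lineage markers 2 fell and 4 rose, with a median of 0.24 that was −0.31 under library size alone, where 3 fell and none rose. Olig1, a lineage transcription factor, rose by 0.74 on the log2 scale (edgeR adjusted p = 6.5e-06) and Mog, a myelin surface protein, fell by 0.86 (edgeR adjusted p = 0.00617, not called without nonirradiated sample 1). Of 26 extracellular matrix genes of glia and perineuronal nets 9 fell and 5 rose (median −0.16). In that list the proteoglycan Bcan went from 117.8, 110.6 and 115.4 to 201.6, 217.7 and 212.8 normalized CPM (log2 fold change 0.88), and the protease inhibitor Timp4 from 33.8, 38.9 and 36.2 to 22.6, 22.4 and 19.5 (−0.76). Only 3 of 15 microglia markers and 10 of 14 vascular markers passed the filter on level, and the vascular median of 0.13 was −0.40 under library size alone. Of 12 proliferation markers 4 rose and none fell (median 0.48), but under library size alone none rose and 3 fell (−0.06).

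Genes of general function separated by machinery. All 79 cytosolic ribosomal protein genes rose (median 1.46), as did 75 of 76 nuclear-encoded respiratory chain genes (1.37), 29 of 31 proteasome genes (0.98) and 12 of 17 glycolytic genes (0.61). Nonirradiated sample 2 was the highest of its group for nearly every glycolytic gene, so the size of the glycolytic rise depends on that sample. Rps16, a small-subunit protein, had 20.1, 22.2 and 18.8 normalized CPM in nonirradiated and 61.7, 95.1 and 104.2 in irradiated samples (log2 fold change 2.09, SE 0.15, edgeR adjusted p = 5.3e-10). Ndufs6, a subunit of complex I, went from 13.5, 12.2 and 13.8 to 35.2, 42.9 and 47.2 (1.67, SE 0.12, edgeR adjusted p = 9.7e-10). Gapdh, a glycolytic enzyme often used as a reference, went from 161.5, 213.7 and 162.0 to 390.0, 375.2 and 361.5 (1.07, SE 0.10, edgeR adjusted p = 2.3e-08). Actb, the β-actin reference, went from 2000.5, 2097.2 and 2172.9 to 1563.2, 1639.0 and 1572.6 (−0.39, SE 0.09, edgeR adjusted p = 0.00078). The 2 common reference genes thus moved in opposite directions, and neither had overlapping groups.

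Smaller rises were seen for translation factors (25 of 38 rose, 7 fell, median 0.50), lysosomal genes (17 of 28 rose, 2 fell, 0.42), chaperonin and heat shock genes (13 of 20 rose, 1 fell, 0.37) and tRNA synthetases (14 of 20 rose, none fell, 0.35). Those 4 medians were −0.05, −0.13, −0.18 and −0.22 under library size alone, so their rise is relative to the other genes. Within translation factors Eef1b2, an exchange factor of elongation, rose by 1.39 (edgeR adjusted p = 1.4e-10) and Eif4e, the cap-binding protein, fell by 0.60 (edgeR adjusted p = 8.3e-06). The vacuolar proton pump was divided: 8 of 16 genes rose and 2 fell (median 0.24, or −0.31 under library size alone). Over genes sharing no exon base the median relative to protein-coding genes was −0.03 for the pump, from 0.18, and 0.20 for lysosomal genes, from 0.37. Its short subunit Atp6v1f went from 34.8, 39.7 and 34.8 to 71.8, 91.0 and 86.5 normalized CPM (log2 fold change 1.19), and the accessory Atp6ap2 from 140.5, 143.7 and 146.6 to 91.6, 78.9 and 88.5 (−0.73).

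Regulators of RNA, chromatin and protein turnover lost reads. Of 35 genes for mRNA silencing and decay 29 fell and 1 rose (median −0.68), of 25 large ubiquitin ligases 22 fell and 1 rose (−0.49), of 54 chromatin regulators 35 fell and 5 rose (−0.41), and of 41 SR and hnRNP genes 27 fell and 2 rose (−0.32). Cnot6l, a deadenylase of the CCR4-NOT complex, went from 37.7, 34.6 and 36.5 to 16.1, 10.1 and 11.2 normalized CPM (log2 fold change −1.52, SE 0.13, edgeR adjusted p = 1.2e-08). Pum2, a 3′ UTR-binding repressor, went from 153.9, 137.6 and 143.3 to 74.9, 65.5 and 71.4 (−1.03, SE 0.08, edgeR adjusted p = 4.2e-09). Fxr2, a relative of the fragile X protein, was the 1 gene of that list that rose (0.59, SE 0.09, edgeR adjusted p = 1.4e-05). Tet3, which oxidizes methylcytosine, led the chromatin list downward (79.5, 82.7 and 84.0 to 46.0, 42.1 and 41.0, log2 fold change −0.93), and Ezh2, the Polycomb methyltransferase, led it upward (0.62). Ube3a, the ligase of Angelman syndrome, went from 199.3, 193.5 and 213.7 to 93.2, 58.8 and 76.9 (−1.40). It shares 27.3% of its exon bases with another annotated gene, and because counting did not name a strand option, sense and antisense reads there cannot be told apart.

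Calcium signalling and activity genes gave smaller groups. Of 22 calcium-binding and calcium signalling genes 11 fell and 6 rose (median −0.21, or relative to protein-coding genes −0.26, and −0.07 over genes sharing no exon base), from the kinase Camk4 at −1.01 to the calcium-binding Necab2 at 1.09. Of 23 immediate early genes 5 fell and 5 rose, and their median of 0.01 was −0.51 under library size alone. Fosl2, a partner of Jun in AP-1, went from 141.3, 162.7 and 144.9 to 72.6, 74.1 and 68.4 normalized CPM (log2 fold change −1.06, SE 0.08, edgeR adjusted p = 3e-09). Bdnf, the neurotrophin, went from 21.3, 18.8 and 22.6 to 12.9, 14.5 and 12 (−0.68, SE 0.13, edgeR adjusted p = 0.00015). Arc, a dendritic cytoskeletal protein induced by activity, had 3.19, 4.65 and 2.58 against 4.55, 5.64 and 5.81, groups that overlapped (0.62, SE 0.24, edgeR adjusted p = 0.0339). The call for Arc was lost with DESeq2 and on leaving out nonirradiated sample 1 or 3 or irradiated sample 2 or 3. Of 56 clustered protocadherin genes, cell-surface identity molecules, 27 fell and none rose (median −0.44), but only 18 of them share no exon base with another gene, so their counts are not independent. The median relative to protein-coding genes was −0.49 over all and −0.94 over those 18.

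Among protein-coding genes with a mean of at least 10 CPM and little exon sharing, the largest falls were of genes from several of these roles. Rbms3, a single-stranded RNA-binding protein, went from 20.9, 17.7 and 19.2 to 6.39, 5.44 and 4.26 normalized CPM (log2 fold change −1.85, SE 0.16, edgeR adjusted p = 9.9e-09). Nucks1, a nuclear chromatin-associated protein, went from 258.4, 230.8 and 253.4 to 86.7, 64.2 and 76.1 (−1.7, SE 0.10, edgeR adjusted p = 8.3e-11). Fzd3, a Wnt receptor needed for axon tracts, went from 223.5, 196.2 and 216.2 to 78.1, 64.4 and 70.6 (−1.57, SE 0.09, edgeR adjusted p = 8.3e-11). In all of them the irradiated values lay far below the nonirradiated ones. The other 7 were Arl5b, D10Wsu102e, Pgap1, Rnf152, Kantr, Prkaa2 and Scai, between −1.71 and −1.56. The 10 largest rises were Rps16, 8 histone genes and Ccdc107, which shares exon bases with Rmrp, the RNA of RNase MRP.

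Histone genes are shown with sequence because their mRNAs, unlike others, end in a stem-loop instead of a poly(A) tail. Of 24 tested replication-dependent histone genes 22 rose and 1 fell (median 1.78). Annotated transcripts with a full window of 100 bases after the stop codon were used, which left out 7 tested histone genes. That window was searched for 6-base arms that pair perfectly around a 4-base loop. Such a hairpin was found in 15 of the 17 histone genes with a full window (88.2%) and in 599 of 13348 other protein-coding genes (4.49%). The windows below are 5′ to 3′, with mm10 coordinates and the paired arms in capitals. The first 4 genes rose, by 1.68, 1.39, 1.97 and 1.81 on the log2 scale, and Hist2h3c1 is shown because it has the same arms as Hist1h1c but did not pass the test (−0.63).
Hist1h4d, chr13:23581945-23581970, plus strand: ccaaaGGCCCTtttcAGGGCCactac
Hist1h1c, chr13:23739507-23739532, plus strand: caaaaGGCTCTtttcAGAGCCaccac
Hist1h3c, chr13:23745042-23745067, minus strand: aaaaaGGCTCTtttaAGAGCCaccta
Hist4h4, chr6:136803993-136804018, minus strand: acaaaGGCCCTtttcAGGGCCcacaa
Hist2h3c1, chr3:96247322-96247347, plus strand: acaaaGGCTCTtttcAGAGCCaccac

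Hist1h4d, an H4 gene, had 69.2, 77.2 and 84.3 normalized CPM in the nonirradiated and 193.7, 279.5 and 264.6 in the irradiated samples (log2 fold change 1.68, SE 0.11, edgeR adjusted p = 4.1e-10). Its groups did not overlap. The 2 histone genes with a full window but no perfect hairpin went opposite ways: Hist1h2bc rose by 1.35 and Hist2h2be fell by 0.60 (edgeR adjusted p = 0.0498), a call lost with DESeq2 and on leaving out any sample except nonirradiated sample 3. A hairpin match is a description of the sequence only.

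RNA types other than mRNA moved apart as widely as the mRNA groups. The share of all counts on nuclear mRNA genes was 74.1% ± 4.29 (SD, n = 3) without and 57.6% ± 4.76 with irradiation. The mitochondrial genome went from 1.55% ± 0.128 to 3.69% ± 0.462, and genes for small and structured noncoding RNAs from 1.58% ± 0.22 to 3.14% ± 0.415. Gm42418, AY036118 and CT010467.1, loci that hold ribosomal RNA sequence, took 18.6% ± 4.96 and 32.9% ± 5.48. These 3 loci overlap and a read counts for each, so the sum counts many reads more than once, and CT010467.1 alone took 5.42% to 8.86% and 10.1% to 14.1%. For each of these shares the groups did not overlap, and the exact 2-sided permutation p was 0.1, the smallest that 3 samples against 3 allow. With the 10 most counted genes of each library left out, nuclear mRNA took 94.1% and 92.4%, and the mitochondrial genome 0.358% and 1.13%. The most counted genes included the protein-coding Lars2, with 3.66%, 2.98% and 5.07% of nonirradiated and 6.98%, 7.67% and 5.57% of irradiated counts. These ranked the 6 libraries in the same order as CT010467.1 (6.14%, 5.42% and 8.86%, then 12%, 14.1% and 10.1%). The counts of Lars2 may therefore not all be mRNA, which was not tested. Another of the most counted genes, the protein-coding Ccnb1ip1, had the same percentages as the overlapping ribozyme gene Rpph1, so its counts may not be mRNA. As protein-coding genes both are part of the nuclear mRNA share.

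Tested transcripts of the mitochondrial genome rose: all 7 mRNAs (median 1.42), both rRNAs and all 17 tRNAs (1.69). The tRNA genes had a median length of 69 bases and a median of 2.2 CPM without irradiation, against 4688.7 for the rRNAs. A read counts for every gene it overlaps, so tRNA counts may include reads of adjoining mitochondrial transcripts, which was not tested. The other 6 of the 13 mitochondrial mRNAs (mt-Co2, mt-Co3, mt-Atp6, mt-Atp8, mt-Nd3 and mt-Nd4l) had 3 counts or fewer in every library, although such mRNAs are usually abundant, so the list and the mitochondrial share leave them out and the cause was not tested. The large mitochondrial rRNA mt-Rnr2 went from 8350.3, 7689.7 and 8061.3 to 29054.2, 30633.1 and 30738.4 normalized CPM (log2 fold change 1.91, SE 0.10, edgeR adjusted p = 7.8e-11). Of 26 listed small and structured nuclear or cytoplasmic noncoding RNAs 18 were tested and all 18 rose (median 1.68). Under library size alone 13 of them rose and none fell (1.11). Only 7 of the 18 share no exon base with another gene, so reads of the others may come from an overlapping gene. Rn7sk, the RNA that sequesters P-TEFb, went from 5059.1, 5981.8 and 5609.4 to 12061.7, 16881.0 and 14304.5 (1.38, SE 0.12, edgeR adjusted p = 1e-08). Of 9 small Cajal body RNAs 8 rose and none fell (median 1.45), and of 16 genes annotated as snRNA 9 rose and 1 fell (1.35). With no shared exon base, all 8 snRNA genes outside protein-coding genes rose (1.56). None of the 3 inside such a gene on the opposite strand was called (−1.08), nor was the 1 on the same strand (−1.03). Over every snRNA gene with at least 1 count, 12 rose and 1 fell, but the median relative to protein-coding genes was −1.71, from 1.29. Among 137 snoRNA genes 38 rose and 17 fell (0.15), but under library size alone 21 rose and 37 fell (−0.39), and over every one with at least 1 count the relative median was −0.58, from 0.09. By position, of 24 snoRNAs inside a protein-coding gene on the same strand with no shared exon base 13 rose and 1 fell (1.19), and of 20 outside such genes 1 rose and 5 fell (−1.27).

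**Figure D3:**
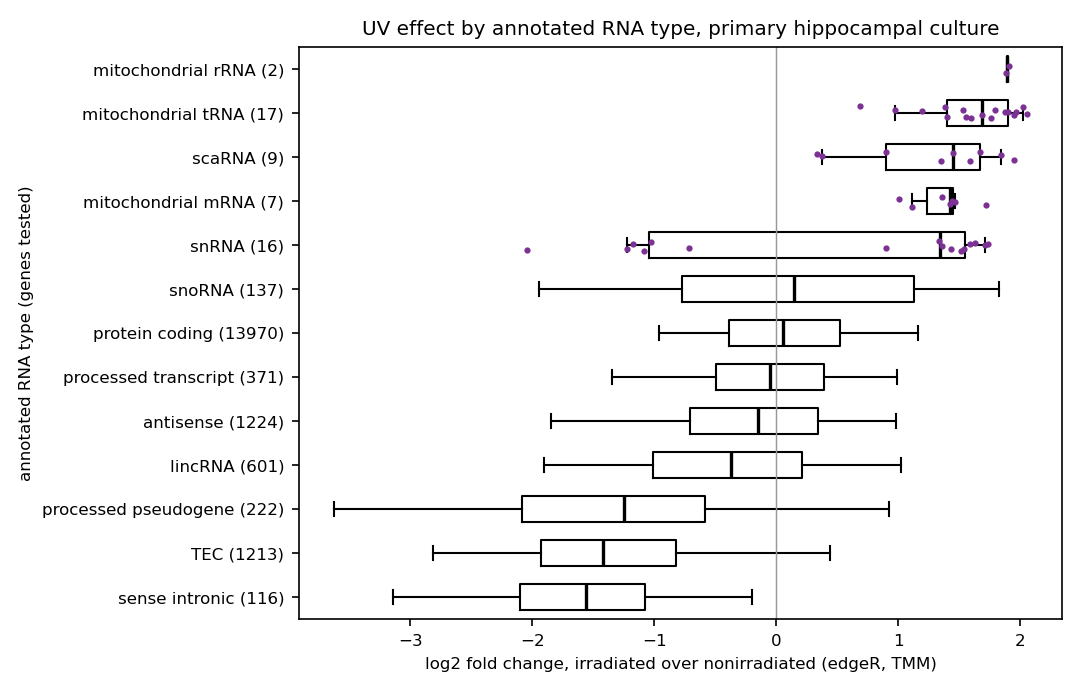
Log2 fold change by RNA type in the hippocampal culture, with boxes from the lower to the upper quartile, the median as a thick line and whiskers to the 5th and 95th percentiles, and single genes as points for types with few genes. Sense-intronic, TEC and processed pseudogene classes have medians of −1.56, −1.42 and −1.24, protein-coding genes 0.05, and small Cajal body RNA, mitochondrial tRNA and mitochondrial rRNA 1.45, 1.69 and 1.90.

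Classes of unspliced or poorly annotated transcripts lost reads. Of 1213 TEC genes, loci that GENCODE lists as awaiting experimental evidence, 633 fell and 34 rose (median −1.42), and of 116 sense-intronic genes, single-exon transcripts within introns, 68 fell and 2 rose (−1.56). By location, of 735 TEC loci inside a protein-coding gene on the same strand with no shared exon base 467 fell and none rose (−1.62), while of 152 outside such genes 60 fell and 3 rose (−1.16). Antisense genes with no shared exon base inside a protein-coding gene on the opposite strand fell in 67 of 152 cases and rose in 1 (−1.43), and those outside fell in 8 of 59 and rose in 6 (−0.47). Processed pseudogenes, reverse-transcribed copies of mRNAs, fell in 81 of 222 cases and rose in 12 (−1.24). Their reads can be split with the parent gene, so the values are uncertain. lincRNA genes fell in 146 of 601 cases (24.3%), near the 25.9% of all genes, and rose in 65 (10.8%, against 26.1%), with a median of −0.37.

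These classes had low levels, and the filter used nonirradiated samples only, which favours falls near its limit. With at least 10 counts required in every sample the median relative to protein-coding genes went from −1.47 to −0.10 for TEC genes, from −1.30 to 0.46 for processed pseudogenes, from −0.20 to 0.03 for antisense genes and from 0.09 to 1.29 for snoRNA genes. The stricter filter removes genes that fell to few counts, so it favours the opposite direction. With the limit of 0.5 CPM set on the mean of both groups the medians were −1.42, −0.86, −0.11 and 0.35.

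The change in protein-coding genes went with length and base composition. In the shortest quintile of 13977 protein-coding genes by summed exon length the median log2 fold change was 0.70, and in the following quintiles it was 0.30, 0.05, −0.12 and −0.38. Of the shortest quintile 59.5% of genes rose and 4.33% fell, and of the longest 6.33% rose and 55.4% fell. By 3′ UTR length the medians were 0.46, 0.37, 0.10, −0.11 and −0.45, and by coding length they ran from 0.48 to −0.19. By share of uridine in the transcript they were 0.45, 0.27, 0.07, −0.14 and −0.45. Spearman's rho across genes was −0.51 for exon length, −0.46 for 3′ UTR length and −0.46 for uridine, given without p because genes within the same 6 libraries are not independent. Length and uridine each went with the change within quintiles of the other. Within the shortest quintile the median ran from 0.92 in the 809 genes lowest in uridine to 0.17 in the 342 highest. Within the longest it ran from −0.05 in 377 genes to −0.69 in 736. The longest quintile spans 7631 to 123179 bases, so length still varied within it. Share of G and C had a rho of 0.47 and was not separated from uridine.

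**Figure D4:**
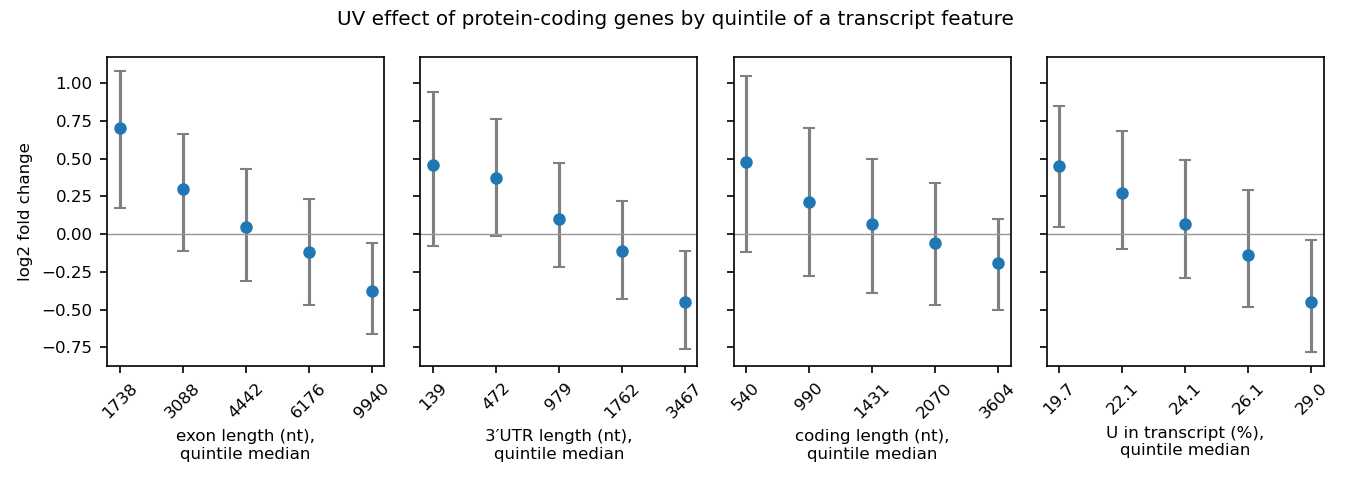
Median log2 fold change, irradiated against nonirradiated (points), with lower and upper quartiles (bars), of protein-coding genes in 5 equal classes of exon length, 3′ UTR length, coding length and uridine share, each class placed in order and marked with its median. Medians descend from 0.70 to −0.38 across exon length and from 0.45 to −0.45 across uridine share.

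Set against genes of similar length, the lists differed in size and direction. Relative to the median of protein-coding genes in the same length quintile, the list median was 0.86 for ribosomal proteins, 0.72 for the respiratory chain, 0.44 for the proteasome and 0.44 for astrocyte markers. It was −0.57 for Rab GTPases, −0.50 for protocadherins, −0.37 for silencing and decay genes, −0.32 for SR and hnRNP genes and −0.31 for GABA receptors. For chromatin regulators (−0.04), neuronal cytoskeleton genes (−0.02) and postsynaptic genes (0.07) it was close to 0. Rab GTPase genes, with a median exon length of 3494.5 bases, and astrocyte markers, with 3417 bases, thus had similar exon length and opposite medians. Their median 3′ UTR lengths were 2041 and 1117.5 bases, and their median uridine shares were 27% and 24%.

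The irradiation effect in these cultures differed from that in Neuro2a cells at many genes. Neuro2a is a dividing neuroblastoma line, and its 3 irradiated and 3 nonirradiated samples were fitted with the 6 hippocampal ones. Of 14973 genes tested in both, the interaction term (hippocampal minus Neuro2a log2 fold change) was negative for 1256 (8.39%) and positive for 2411 (16.1%) at the same threshold. This split depended on the scaling, with 64 negative and 7519 positive under library size alone, and other filters gave 711 or 766 negative. The SD of the log2 fold change over genes was 0.80 in the culture and 1.45 in Neuro2a, so the changes in the culture were less spread. For ribosomal proteins the interaction was negative for 73 of 79 genes, with medians of 1.46 in the culture and 2.07 in Neuro2a. For large ubiquitin ligases it was positive for 19 of 23 (−0.49 and −1.14), for silencing and decay genes for 18 of 35 (−0.68 and −1.41), and for protocadherins for 33 of 56 (−0.44 and −1.05). Tomm20, a mitochondrial import receptor, fell in the culture (−0.53, SE 0.0806) and rose in Neuro2a (1.22, SE 0.0931), and the difference was −1.74 (SE 0.13, edgeR adjusted p = 9.3e-08). Of the astrocyte markers 13 could be compared, and the difference passed the test for 3, all positive, with medians of 0.75 and 0.78.

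**Figure D5:**
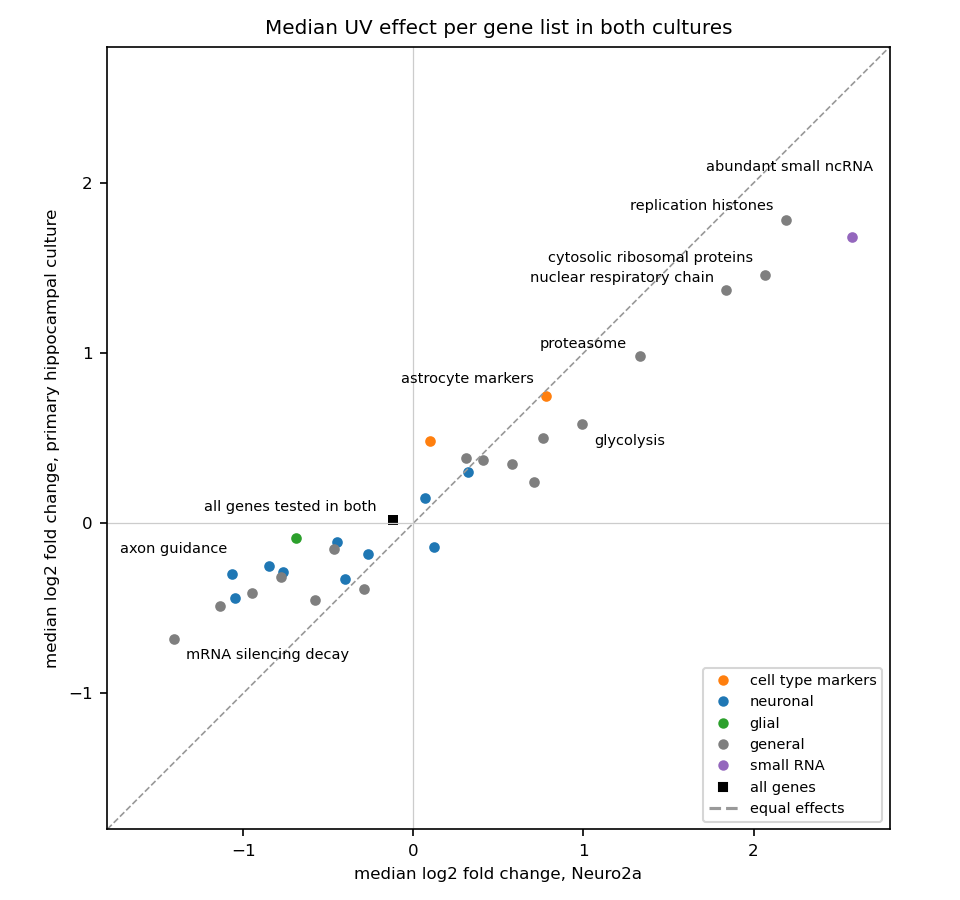
Median log2 fold change of each gene list, over its members tested in both, in Neuro2a (horizontal axis) and in the hippocampal culture (vertical axis), both irradiated against nonirradiated, with the line of equal values and the median of all genes as a square. Ribosomal proteins lie at 2.07 and 1.46 and silencing and decay genes at −1.41 and −0.68, nearer to 0 in the culture.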

How the data were processed

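The deposited files hold raw read counts per gene. The authors aligned reads from rRNA-depleted libraries to mm10 with TopHat2 2.1.1 and counted them over GENCODE M17 exons with featureCounts 1.6.1, letting a read count for every gene it overlaps. No strand option is named, and the labels and the study's methods name different kits. Symbols and RNA types came from GENCODE M21 (99.82% of genes matched), and transcript features from the annotated transcript with the longest coding sequence. Genes with a mean of at least 0.5 CPM in nonirradiated samples were fitted in edgeR 4.0.16 (quasi-likelihood test, TMM factors, Benjamini-Hochberg adjustment over all genes tested) under R 4.3.3, and a fit of 12 samples gave the interaction with Neuro2a. The method was tested on simulated counts. Replicates differed beyond sampling noise. The members and gene lists were chosen with earlier results of these data known. Named genes are, in each list and RNA type, drawn from the member with the highest nonirradiated mean and those with the largest called fall and rise without overlap, the 10 protein-coding genes with the largest fall and rise at a mean of at least 10 CPM with under 10% shared exon bases, 12 always named, and the 5 largest interactions each way. Snap25, Apoe, Lars2, Ccnb1ip1 and the histone genes with printed sequence were chosen after their values were seen. Alternatives were DESeq2 1.42.0, its size factors, library size alone, 3 filters, genes sharing no exon base, a replicate block and leaving out each sample. The Neuro2a fit pools the spread of 4 groups. Total counts of 6910907 to 9163323 limit genes near 0.5 CPM to a few reads per library. Some named-gene results are not reported here.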

Additional observations from a re-analysis of the deposited data

Results flagged for a closer look

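The irradiation effect differed between the hippocampal culture and Neuro2a, by the test of the interaction term, at each of the following protein-coding genes, the 5 most negative and 5 most positive among those called with enough counts in both. The culture minus Neuro2a difference in log2 fold change was −1.74 for Tomm20, −1.60 for Gng2, a G protein γ subunit, −1.59 for Timp2, a metalloproteinase inhibitor, −1.59 for Bri3bp and −1.56 for Eny2, a subunit of the SAGA and TREX-2 complexes. It was 2.44 for Mfsd4a, 2.33 for Trp53inp1, a p53-induced gene, 2.33 for Neb, which encodes nebulin, 2.1 for Cpeb4, a cytoplasmic polyadenylation factor, and 2.06 for Adarb2, a relative of the RNA editing enzymes.

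Among the first 5, all but Timp2 fell in the culture and rose in Neuro2a. Gng2 changed by −1.01 and 0.60, Bri3bp by −1.06 and 0.53, and Eny2 by −0.61 and 0.95. Timp2 changed by −0.05 in the culture, which was not called (edgeR adjusted p = 0.594), and by 1.54 in Neuro2a. The other 5 fell in both and further in Neuro2a: Cpeb4 changed by −1.43 and −3.52, Mfsd4a by −1.05 and −3.49, and Adarb2 by −0.34 and −2.40. Gng2 shares 20.4%, Mfsd4a 23.9%, Eny2 4.51% and Neb 0.169% of exon bases with another gene. Cell type and any difference in how the cells were grown or irradiated cannot be told apart here.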

How the results depend on the processing

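Library size alone changed the balance of calls most, to 9149 falls and 1320 rises, while the other alternatives gave 3859 to 4977 falls and 4176 to 5124 rises. Under it 64 interactions were negative and 7519 positive. It turned Slc17a7 (−0.02), Cpe (−0.19), Tubb3 (−0.41) and Rbfox3 (−0.25), and the rises of Thy1, Olig1, Nrgn, Lrrtm1, Rtn4r, Bcan, Ezh2, Fxr2 and Arc were no longer called. Negative interactions numbered 766 with every gene of at least 1 count and 711 with the filter on both groups, against 1256.

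List and RNA type medians are compared here as differences from the median of protein-coding genes. By this measure DESeq2 size factors and the DESeq2 test left each list on its side of 0. With at least 10 counts in every sample they were −0.34 for protocadherins, −0.11 for GABAergic markers, −0.10 for TEC, 0.03 for antisense, −0.20 for lincRNA, 0.46 for processed pseudogene, −0.54 for sense-intronic and 1.29 for snoRNA genes. With genes sharing no exon base they were −0.27 for neuron, 0.70 for astrocyte and −0.01 for oligodendrocyte markers, −0.22 for postsynaptic, −0.31 for adhesion, −0.06 for cytoskeleton, 0.40 for neuropeptide, −0.94 for protocadherin, −0.03 for proton pump, 0.20 for lysosome, −0.07 for calcium, −1.30 for antisense and −0.55 for lincRNA genes. With every gene of at least 1 count they were −0.29 for antisense, −1.51 for processed pseudogene, 0.30 for scaRNA, −1.37 for sense-intronic, −1.71 for snRNA and −0.58 for snoRNA genes, where genes with few reads enter. With the filter on both groups they were −0.11 for antisense, −0.31 for lincRNA, −0.86 for processed pseudogene and 0.35 for snoRNA genes. The cause of the other moves was not tested.

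Leaving out each sample in turn gave ranges of −1.75 to −1.32 for TEC, 1.19 to 1.47 for mitochondrial mRNA, −1.53 to −1.19 for processed pseudogene, 1.12 to 1.54 for scaRNA, −1.77 to −1.40 for sense-intronic, 1.02 to 1.37 for snRNA and −0.03 to 0.20 for snoRNA genes. For lists they were 0.48 to 0.60 for astrocyte, −0.06 to 0.16 for GABAergic, −0.18 to 0.49 for microglia, −0.04 to 0.28 for oligodendrocyte and −0.08 to 0.05 for vascular markers, −0.31 to −0.21 for calcium, 0.46 to 0.90 for glycolysis, 0.33 to 0.48 for lysosome, −0.24 to −0.15 for motor, −0.56 to −0.49 for Rab, 0.42 to 0.50 for translation factor, 0.23 to 0.37 for tRNA synthetase and −0.55 to −0.46 for channel genes.

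Without the 10 most counted genes, the irradiated minus nonirradiated share was 0.0798 percentage points for lncRNA (−1.0 with them), 0.768 for the mitochondrial genome, −1.69 for nuclear mRNA, −0.0765 for other types, −0.0505 for pseudogenes and 1.16 for small RNAs.

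Whether replicate numbers pair the samples was not settled: deviations of same-numbered samples correlated at only 0.137, 0.073 and 0.057. Each was the highest for its sample, and the other pairs ran from −0.108 to 0.025. A replicate block gave 4977 falls and 5043 rises, with 1854 negative and 3039 positive interactions.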
